A study of Mus musculus with 4 samples.

Results

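Ctse, Cyb5r1, F11r, Serpinb7, Tmcc2, Wdfy1, Nnt and Pisd-ps3 are 8 of the 17097 genes measured by microarray in mouse splenic dendritic cells (DC), and 15 of 45037 probe sets carry the symbol of one of them and no other. They were chosen by the values described here: each exceeded its WT level by 2-fold or more in MARCO-/- DC, both with PBS and with LPS. The choice was also made by place, taking genes on the chromosome of Marco together with Nnt and Pisd-ps3. Other genes that passed in the same way were left out. Ctse, Cyb5r1, F11r, Serpinb7, Tmcc2 and Wdfy1 lie on chromosome 1, which also carries Marco. Nnt lies on chromosome 13, and Pisd-ps3 is on no placed chromosome in the RefSeq table used. Because the genotype comparisons selected the genes, their genotype ratios are given as a description and with no test.

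The study asked how the scavenger receptor MARCO affects resting and activated DC, with 4 arrays: WT with PBS, WT with LPS, MARCO-/- with PBS and MARCO-/- with LPS. DC were taken from pooled spleens of adult mice by positive selection for CD11c and kept overnight with PBS or with LPS, a bacterial ligand of TLR4. Both genotypes carry the background label C56BL/6, spelled so in the labels. The methods describe several pools of DC per genotype and do not say which one was hybridized. There is 1 array per condition, so there are no replicates and no test, and genes are called at the 2-fold threshold of the methods. According to the methods the WT mice were C57BL/6 bought from Charles River Laboratories, with no substrain named. The MARCO-/- mice came from an existing knockout line. Deletion of Marco, source of the mice and any other difference in their genomes therefore cannot be told apart. No genotype of a strain marker was measured.

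A gene knocked out in embryonic stem cells of one strain and crossed to another keeps a stretch of donor chromosome around the deleted gene, which breeders call the flanking or passenger region. Genes in such a stretch can carry donor alleles in the knockout line and the recipient's alleles in WT mice. Inbred substrains also differ at single loci, of which Nnt is a well-known example, since the C57BL/6J substrain carries a deletion in it. These are general facts on knockout lines, and neither was measured on these arrays.

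The values are RMA intensities on a linear scale, and the median of all of them was 4.87, close to the background. Array medians ran from 4.72 to 4.98. The targeted gene, Marco, had 8.05 with PBS and 3.15 with LPS in WT, and 3.95 and 4.26 in MARCO-/-. These values lie near the background on every array, the genotype ratio changed direction between PBS and LPS, and the sources used here do not place its probes relative to the deleted part. Of 8 DC markers, none differed 2-fold between genotypes and none was at or below the median of all intensities. Itgax, which encodes CD11c, had 548 with PBS and 12.9 with LPS in WT, and 621 and 16.4 in MARCO-/-. A list of 12 connective tissue and muscle genes, added after the values were seen, sets the WT LPS and MARCO-/- PBS arrays apart. Its summed intensity was 67.7 in WT PBS, 2145 in WT LPS, 713 in MARCO-/- PBS and 64.5 in MARCO-/- LPS. In MARCO-/- 10 of these genes were up by 2-fold or more with PBS and 11 were down by as much with LPS. Across all genes 59 were higher with PBS and lower with LPS in this way, a pattern that the choice of the 8 genes shut out for them. Among the 59 was Xist, an RNA of the X chromosome made in female cells. It had 4.73 in WT PBS, 31.7 in WT LPS, 12.9 in MARCO-/- PBS and 4.72 in MARCO-/- LPS. The methods call the mice sex-matched and do not name the sex, and a difference in sex between arrays was not tested. In bulk samples fewer cells of a type and less RNA per cell cannot be told apart.

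Higher in MARCO-/- by 2-fold or more were 130 of the 17097 genes with PBS (0.76%) and 357 with LPS (2.09%). In both conditions 16 were higher (0.0936%), and with the lower ones 19 genes passed in the same direction (0.111%). All 8 genes are among the 16 by the way they were chosen, and nothing is read from that count. All 15 probe sets were higher in MARCO-/- in both conditions, of which 13 passed 2-fold with PBS, 14 with LPS and 12 in both, where 31 of all 45037 probe sets were higher in both (0.0688%). The 3 that missed 2-fold in one condition are probe sets of Wdfy1 and Tmcc2. The median log2 ratio of the 8 genes was 1.62 with PBS and 1.41 with LPS, beside 0.01 and 0.00 over all genes.

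The sequences upstream of 3 of the genes on chromosome 1 are shown because genes that were higher together can be set side by side there, and because they differ widely in base composition. They are the 250 bases before the transcription start in RefSeq, build GRCm38.p6, whose reference strain is C57BL/6J, so they do not hold the sequence of either line of mice studied here. Capitals mark matches, on either strand, to one of 4 motifs: the box CCAAT near many promoters, TATAAA of promoters with a fixed start, GAGGAA as the core bound by the myeloid transcription factor PU.1, and AGATAA as bound by the erythroid factors of the GATA family.
F11r, chr1:171437311-171437560, + strand: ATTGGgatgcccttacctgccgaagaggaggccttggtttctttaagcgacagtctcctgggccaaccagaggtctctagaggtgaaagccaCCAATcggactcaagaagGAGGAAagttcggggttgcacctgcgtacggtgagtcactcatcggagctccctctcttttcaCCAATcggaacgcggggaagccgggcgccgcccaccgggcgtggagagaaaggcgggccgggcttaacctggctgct
Cyb5r1, chr1:134405531-134405780, + strand: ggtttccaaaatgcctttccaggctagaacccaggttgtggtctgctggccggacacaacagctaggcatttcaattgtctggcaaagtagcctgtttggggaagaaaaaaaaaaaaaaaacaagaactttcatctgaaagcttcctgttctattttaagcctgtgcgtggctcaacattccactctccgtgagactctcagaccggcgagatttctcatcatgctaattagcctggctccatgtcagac
Serpinb7, chr1:107422439-107422688, + strand: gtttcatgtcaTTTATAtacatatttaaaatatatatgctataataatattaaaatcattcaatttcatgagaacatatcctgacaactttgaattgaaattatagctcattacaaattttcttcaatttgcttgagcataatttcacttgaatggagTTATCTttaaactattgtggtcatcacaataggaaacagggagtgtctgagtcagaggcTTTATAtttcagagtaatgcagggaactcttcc

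The F11r window was 60.0% GC with 17 CG dinucleotides and held 3 matches to CCAAT and 1 to GAGGAA. The Cyb5r1 window was 46% GC with 5 CG dinucleotides and held none of the 4 motifs. The Serpinb7 window was 29.2% GC with 0 CG dinucleotides and held 2 matches to TATAAA and 1 to AGATAA. Over all 32851 windows of the same length the median was 52.4% GC and 6 CG dinucleotides, with CCAAT in 33.8%, TATAAA in 12.4%, GAGGAA in 23.3% and AGATAA in 9.99%. The windows thus range from CG-rich to CG-free, and a match is a run of letters and not a bound site. Tmcc2 has 3 start sites in the table, and Ctse, Wdfy1, Nnt and Pisd-ps3 have no window there.

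Ctse encodes cathepsin E, an aspartic protease of endosomes in antigen-presenting cells. Its intensity was 33.6 with PBS and 8.71 with LPS in WT, and 476 and 262 in MARCO-/-. Both MARCO-/- arrays were above both WT arrays. This held for 8.38% of all genes, and the choice of the 8 genes favours it. Nothing is read from it here or for the genes below. The ratio of MARCO-/- over WT was 14.2-fold with PBS and 30.1-fold with LPS. The gene has 1 probe set.

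Of the 6 other aspartic proteases measured, which include Ctsd (cathepsin D) and Napsa (napsin A), none passed 2-fold between genotypes in either condition, and their median log2 ratio was 0.42 with PBS and -0.28 with LPS. Ctsd, the lysosomal relative of cathepsin E, had 162 with PBS and 122 with LPS in WT, and 252 and 156 in MARCO-/-.

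**Figure D1:**
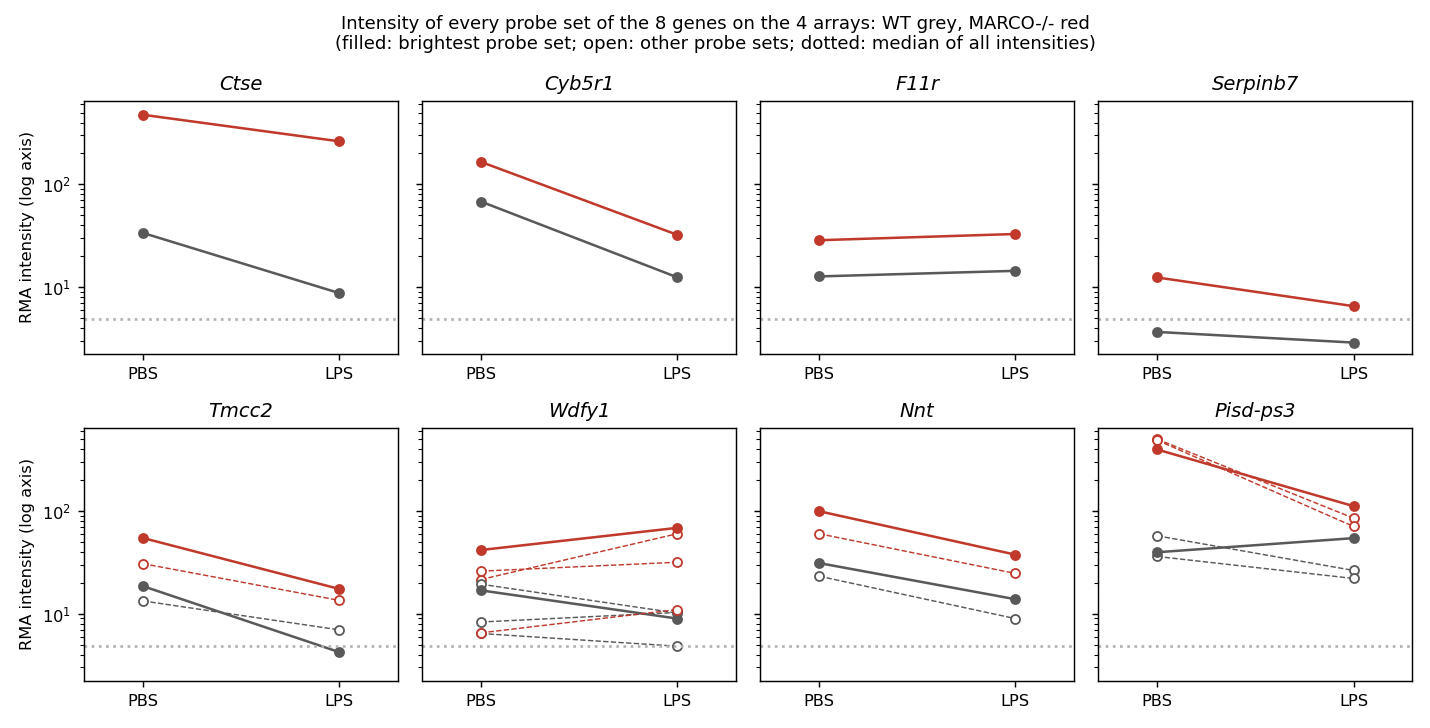
RMA intensity (log axis) of every probe set of the 8 genes with PBS and with LPS, 1 array per point, WT in grey and MARCO-/- in red, filled for the brightest probe set of a gene and open for the others, with a dotted line at the median of all intensities, 4.87. The red line lies above the grey line of the same probe set throughout, and Ctse shows the widest distance with LPS, 262 against 8.71.

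Cyb5r1 and Nnt encode enzymes of redox metabolism. Cyb5r1 is a member of the NADH-cytochrome b5 reductases, which pass electrons from NADH to cytochrome b5, and Nnt, the nicotinamide nucleotide transhydrogenase of the inner mitochondrial membrane, makes NADPH. Cyb5r1 had 67.9 with PBS and 12.4 with LPS in WT, and 165 and 32.2 in MARCO-/-. It was 2.44-fold and 2.60-fold higher in MARCO-/-, but the MARCO-/- LPS array lay below the WT PBS array. The brightest probe set of Nnt had 31.2 with PBS and 13.9 with LPS in WT, and 99.9 and 37.7 in MARCO-/-. Both MARCO-/- values were above both WT values, by 3.20-fold with PBS and 2.72-fold with LPS. A further Nnt probe set gave 2.59-fold and 2.76-fold.

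None of the 7 other cytochrome b5 reductase and b5 genes passed 2-fold between genotypes, with medians of -0.04 with PBS and 0.02 with LPS on the log2 scale. Only 4 of the 7 were above the median of all intensities on at least 1 array. Cyb5r3, the widely expressed reductase, had 221 with PBS and 175 with LPS in WT, and 200 and 173 in MARCO-/-. None of 12 other mitochondrial NADPH and redox genes passed either (medians 0.09 and 0.11), among them Sod2, the mitochondrial superoxide dismutase, and Gsr, glutathione reductase.

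F11r encodes junctional adhesion molecule A, an adhesion protein of tight junctions that leukocytes also carry. It had 12.7 with PBS and 14.3 with LPS in WT, and 28.5 and 32.8 in MARCO-/-. Both MARCO-/- values were above both WT values, and the ratio was nearly the same in both conditions, 2.25-fold and 2.29-fold. After quantile normalization of the arrays the log2 ratio with LPS was 0.95, under 2-fold. Of 16 other junction genes, 3 passed 2-fold upward and none downward in MARCO-/- with PBS, and 2 upward and 1 downward with LPS. Their median log2 ratio was -0.04 with PBS and 0.24 with LPS, and 12 of the 16 were above the median of all intensities on at least 1 array. The 3 were Esam, an endothelial adhesion molecule, Tjp1, which encodes the scaffold ZO-1, and Cldn5, an endothelial claudin, and none of them passed with LPS. Tjp1 had 4.26 with PBS and 10.03 with LPS in WT, and 10.9 and 6.22 in MARCO-/-, highest on the arrays where connective tissue and muscle genes were high, and the part of those cells in this was not tested.

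Serpinb7 encodes a clade B serpin, a family of mostly intracellular protease inhibitors. It had 3.64 with PBS and 2.87 with LPS in WT, and 12.4 and 6.50 in MARCO-/-. Both MARCO-/- values were above both WT values. The WT values were below the median of all intensities, so its folds of 3.40 and 2.27 are ratios to background values. Of 12 other clade B serpins none passed 2-fold with PBS, and Serpinb2 alone passed with LPS, being lower in MARCO-/- (4.92 and 2.09). The list's median log2 ratio was -0.12 with PBS and -0.06 with LPS. Only 8 of the 12 were above the median of all intensities on at least 1 array.

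Tmcc2 encodes a transmembrane protein with coiled coils found in the endoplasmic reticulum. Its brightest probe set had 18.6 with PBS and 4.23 with LPS in WT, and 54.8 and 17.5 in MARCO-/-. The gene was 2.95-fold and 4.13-fold higher in MARCO-/-, with the WT LPS value at the background and with MARCO-/- LPS slightly below WT PBS. A further probe set, whose probes may also read related transcripts according to its name, gave 2.31-fold and 1.94-fold. The family members Tmcc1 and Tmcc3 stayed under 2-fold. Tmcc3 had 58.5 with PBS and 240.0 with LPS in WT, and 57.1 and 361 in MARCO-/-.

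Wdfy1 encodes a protein of early endosomes with a FYVE domain, which binds a phosphoinositide of the endosomal membrane, and it has been described as an adaptor for TRIF, the signalling protein shared by TLR3 and TLR4. Its brightest probe set had 16.9 with PBS and 8.98 with LPS in WT, and 41.8 and 68.8 in MARCO-/-. Both MARCO-/- values were above both WT values, and the ratio was 2.47-fold with PBS and 7.66-fold with LPS. The 3 other probe sets gave 2.60-fold, 1.34-fold and 1.01-fold with PBS and 5.85-fold, 3.13-fold and 2.28-fold with LPS. All 4 probe sets thus passed with LPS and 2 of them with PBS, and the mean of the 4 missed 2-fold with PBS (log2 ratio 0.78).

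Of 19 genes of FYVE and WD repeat proteins and of the TRIF route, none passed 2-fold with PBS. With LPS, where 2.09% of all genes were higher in MARCO-/-, 4 were higher and none lower. They were Wdfy3, a large protein of selective autophagy, Zfyve16, an endosomal FYVE protein, Rab5b, a GTPase of early endosomes, and Tbk1, the kinase downstream of TRIF. Tbk1 had 244 with PBS and 181 with LPS in WT, and 243 and 370 in MARCO-/-. The WT LPS values of Wdfy3, Zfyve16 and Rab5b were low, at 5.88, 5.69 and 8.02. Tlr3, Tlr4, Ticam1, which encodes TRIF, and Irf3 did not pass with LPS (log2 ratios 0.54, -0.75, 0.25 and 0.06). The list's median log2 ratio was 0.02 with PBS and 0.28 with LPS.

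Pisd-ps3 is a pseudogene of Pisd, the phosphatidylserine decarboxylase of mitochondria that makes phosphatidylethanolamine. Its brightest probe set had 39.8 with PBS and 54.6 with LPS in WT, and 399 and 112 in MARCO-/-. Both MARCO-/- arrays were above both WT arrays, by 10.03-fold with PBS and 2.05-fold with LPS. The others gave 8.75-fold and 13.6-fold with PBS and 3.23-fold and 3.21-fold with LPS. The ratio of the brightest one with LPS fell under 2-fold after quantile normalization (log2 ratio 0.86) and after cyclic loess (0.91).

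Copies of this pseudogene are close in sequence, so signal from one copy and from another cannot be told apart. The 3 probe sets annotated to both Pisd-ps1 and Pisd-ps3 were 1.29-fold, 1.77-fold and 1.28-fold higher with PBS and 1.54-fold, 1.26-fold and 1.35-fold higher with LPS. The brightest probe set of Pisd had 151 with PBS and 211 with LPS in WT, and 172 and 185 in MARCO-/-. None of 10 genes of phosphatidylserine and phosphatidylethanolamine metabolism passed 2-fold between genotypes (medians -0.10 and 0.28).

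**Figure D2:**
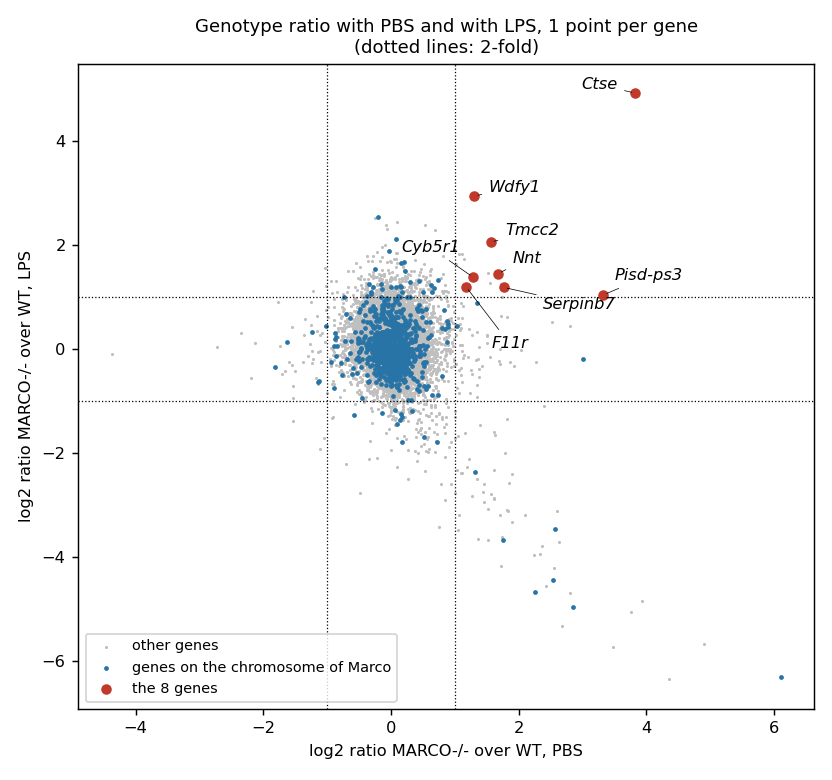
MARCO-/- over WT as a log2 ratio, with PBS on the x axis and LPS on the y axis, for 17097 genes, with the genes on chromosome 1 in blue, the 8 genes in red and dotted lines at 2-fold. The 8 genes lie in the upper right corner, from Ctse at 3.82 and 4.91 down to F11r at 1.17 and 1.19, while the genes that are higher with PBS and lower with LPS, such as Col3a1 at 6.11 and -6.31, form the tail at the lower right.

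The edges of the choice are close to the threshold. Pisd-ps3 with LPS, at a log2 ratio of 1.04, was the smallest ratio that passed, followed by F11r with PBS at 1.17 and Serpinb7 with LPS at 1.18. Just outside it on chromosome 1 was Il10, the anti-inflammatory cytokine, which was higher in MARCO-/- by 2.54-fold with PBS and 1.85-fold with LPS (3.39 and 8.61 with PBS, 27.6 and 51.0 with LPS). Il18r1, a chain of the interleukin-18 receptor, followed and was lower by 1.86-fold and 1.68-fold. Ifi213, an interferon-inducible gene, came close behind and was higher by 1.78-fold and 1.68-fold.

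In the order of measured genes along chromosome 1, Serpinb7 was the 20th gene on one side of Marco (rank -20) and Ctse, Tmcc2 and Cyb5r1 were at ranks 42, 54 and 78 on the other. Wdfy1 at rank -170 and F11r at rank 296 were farther away. Only the first 4 therefore lie within 100 measured genes of Marco. Nearer to Marco than any of the 8 genes, the list of 19 measured genes next to it held none that passed 2-fold in either condition. The median log2 ratio of the 19 was 0.03 with PBS and -0.16 with LPS. Only 13 of them were above the median of all intensities on at least 1 array. The direct neighbours of Marco, C1ql2, En1, Steap3 and 2610027F03Rik, were below the median of all intensities.

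Of the 200 genes within 100 on either side of Marco, 10 passed 2-fold with PBS (5.0%) and 14 with LPS (7.0%) in either direction. On the rest of the chromosome 11 of 771 passed with PBS (1.43%) and 37 with LPS (4.8%), and on the other chromosomes 154 of 15953 (0.965%) and 525 (3.29%). The shares near Marco include the 4 chosen genes. Without the chosen genes they were 3.06% and 5.1% near Marco, and 1.17% and 4.55% on the rest of the chromosome. The median size of the log2 ratio was 0.16 with PBS and 0.27 with LPS near Marco, beside 0.13 and 0.22 on the other chromosomes. Of the genes past 2-fold with PBS, 1 near Marco, 6 on the rest of the chromosome, such as Col3a1, and 55 on the other chromosomes went past it in the opposite direction with LPS. Without these the PBS shares, chosen genes included, were 4.5%, 0.649% and 0.621%. They rest on 9, 5 and 99 genes, of which 4, 2 and 1 were chosen for passing with PBS. The difference between these shares is therefore partly set by the choice, and nothing is read from it. These shares have no error, since each rests on 1 pair of arrays.

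**Figure D3:**
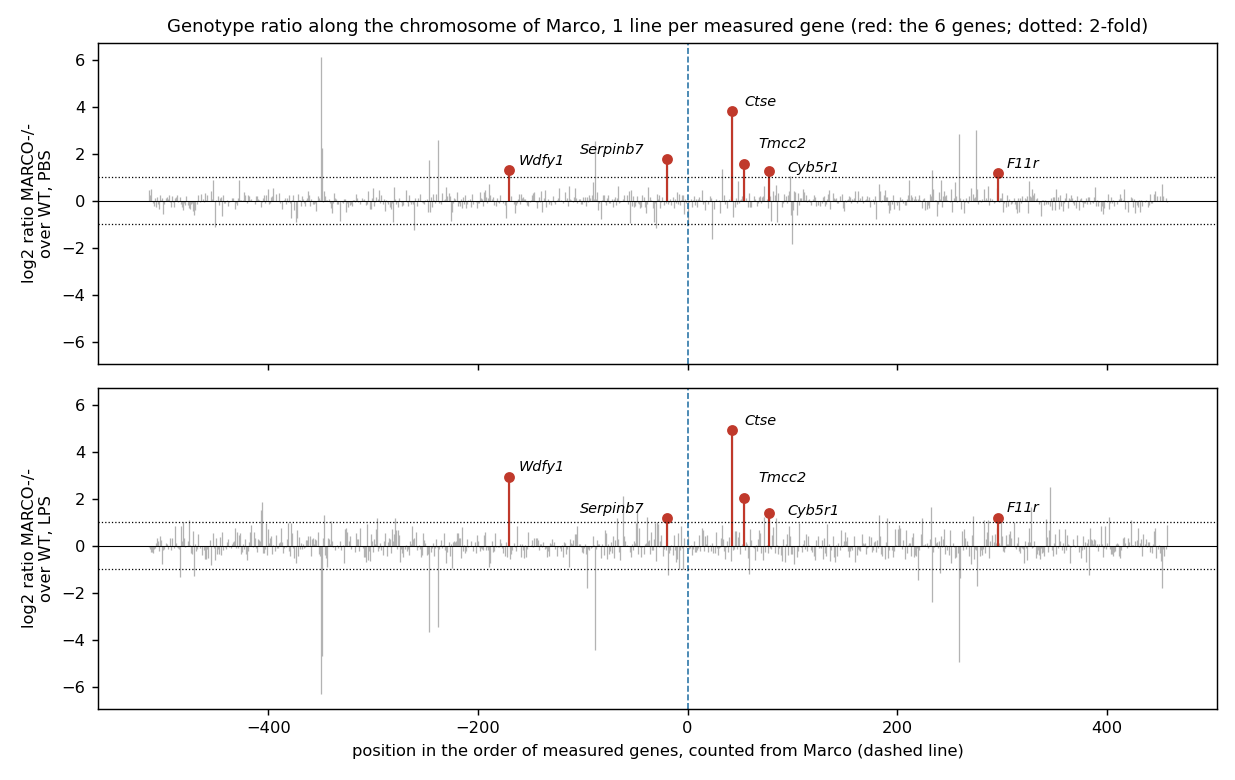
MARCO-/- over WT as a log2 ratio, PBS at the top and LPS at the bottom, along chromosome 1, 1 line per measured gene in gene order counted from Marco (dashed line), with the 6 chosen genes in red and dotted lines at 2-fold. The red genes are higher in both panels at ranks -170, -20, 42, 54, 78 and 296, while the tallest grey line at the left, Col3a1, points up with PBS and down with LPS.

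The measured genes next to Marco and to each of the 7 placed genes, up to 2 on either side, gave 32 genes that were not chosen. None of them passed 2-fold with PBS and 1 passed with LPS, Serpinb2, next to Serpinb7. Their log2 ratios ran from -0.86 to 0.55 with PBS and from -1.24 to 0.76 with LPS, and 18 of them were above the median of all intensities on at least 1 array. Rab7b, a GTPase of late endosomes next to Ctse, went the other way from it, with 224 (PBS) and 12.6 (LPS) in WT against 139 and 11.1 in MARCO-/-. Adipor1, an adiponectin receptor next to Cyb5r1, had 214 (PBS) and 208 (LPS) in WT against 250 and 196 in MARCO-/-. Usf1, a transcription factor next to F11r, had 12.1 (PBS) and 15.5 (LPS) in WT against 17.7 and 26.2 in MARCO-/-, higher in MARCO-/- in both conditions but under 2-fold. Paip1, a translation factor next to Nnt on chromosome 13, differed little, with 72.3 (PBS) and 74.5 (LPS) in WT against 79.4 and 81.3 in MARCO-/-.

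Among the 19 genes past 2-fold in the same direction, 6 lay on chromosome 1 (31.6%), where 5.74% of the placed genes lie. All 6 are among the chosen genes because the choice took genes of that chromosome, and nothing is read from that overlap. The other 11 were not placed on chromosome 1, and were higher for 8 and lower for 3. Slc15a2, a peptide transporter on chromosome 16, had 12.4 (PBS) and 6.86 (LPS) in WT against 56.7 and 64.5 in MARCO-/-, although only 1 of its 3 probe sets passed. Jchain, the joining chain of polymeric antibodies, was 2.93-fold and 2.40-fold higher, and Slpi, a secreted inhibitor of neutrophil elastase, 2.08-fold and 3.55-fold. Rab20, Gpr84, LOC664787, Alas2 and Ncr1 were the other higher genes, the last of which is a receptor of NK cells and the last but one an enzyme of heme synthesis in erythroid cells. The lower genes were Gzma and Gzmb, granzymes of cytotoxic lymphocytes, and Dab2, an endocytic adaptor, for which 1 of 3 probe sets passed.

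**Figure D4:**
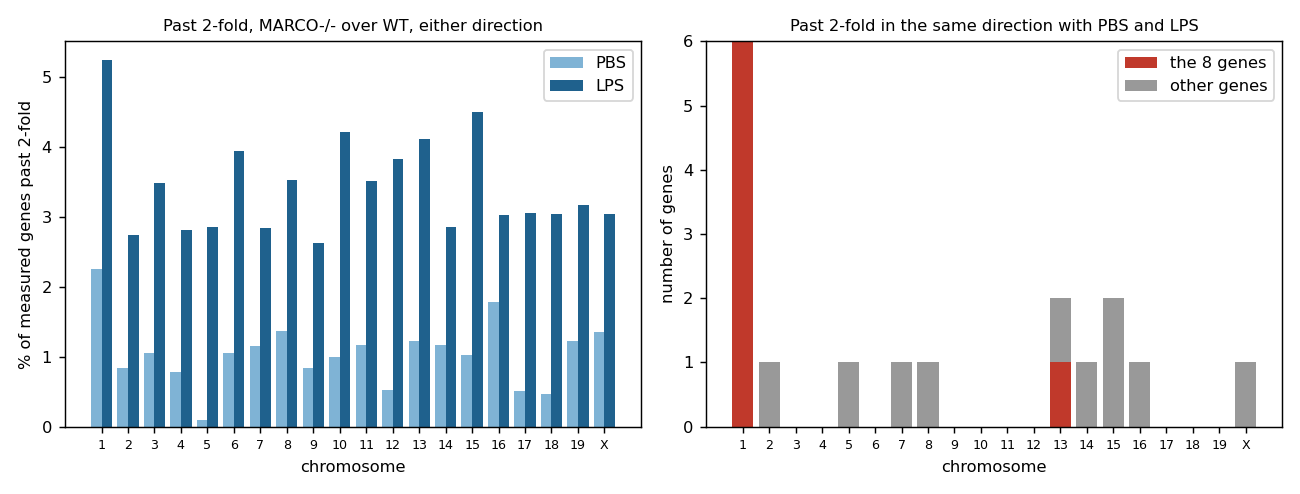
Left, the share of measured genes of each chromosome past 2-fold between genotypes in either direction, with PBS (light) and LPS (dark); right, the number of genes past 2-fold in the same direction in both conditions, the chosen genes in red. Chromosome 1 has 2.26% with PBS and 5.25% with LPS. Its 6 genes on the right are all chosen ones, since the choice was made by chromosome. Chromosome Y, with few measured genes, is left out.

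At 1.5-fold 99 genes passed in the same direction, and 91 of them were not among the 8. Of these 91, 9 lay on chromosome 1 (9.89%), with 6 higher and 3 lower in MARCO-/-. That was 0.932% of the other genes of chromosome 1 and 0.502% of those on the other chromosomes. Within 100 measured genes of Marco they were Il10, Chil1 and Ppp1r12b, and Tnfrsf11a, which encodes the receptor RANK and was lower. Chil1 had 2.30 with PBS and 2.95 with LPS in WT, Il10 3.39 in WT PBS and Ppp1r12b 3.56 in WT LPS. These values are below the median of all intensities, so the ratios that use them are ratios to background values. A list of 15 measured genes with described variants between inbred strains or substrains, other than Nnt, held none past 2-fold with PBS, and 2 higher and none lower in MARCO-/- with LPS. These were Naip5, an inflammasome receptor for flagellin (5.08 and 13.8 with LPS), and Mx2, an interferon-induced antiviral GTPase (13.7 and 32.8). The list's median log2 ratio was 0.13 with PBS and 0.24 with LPS, and 11 of the 15 were above the median of all intensities on at least 1 array.

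The response to LPS was not used to choose the genes. In WT 6 of the 8 genes were lower with LPS than with PBS, and in MARCO-/- also 6. At least 2-fold lower were 4 in WT, where 8.31% of all genes were, and 4 in MARCO-/-, where 5.98% were. None was at least 2-fold higher, beside 6.2% of all genes in WT and 6.32% in MARCO-/-. The median log2 ratio of LPS over PBS of the 8 genes was -1.04 in WT and -1.17 in MARCO-/-, while that of all genes was 0.05 and 0.00. These comparisons use the same 4 arrays as the choice of the genes, so they share their errors. The shares and medians over all genes also include genes near the background on every array, which have little room to fall. All 8 genes were above the median of all intensities on at least 1 array, so the 2 sets differ in level.

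Cyb5r1 was 5.48-fold lower with LPS in WT and 5.14-fold lower in MARCO-/-. Nnt was 2.25-fold lower in WT, which was under 2-fold after quantile normalization (log2 ratio -0.92), and 2.65-fold lower in MARCO-/-, and Tmcc2 4.40-fold and 3.14-fold lower. F11r differed little between PBS and LPS, being 1.13-fold higher in WT and 1.15-fold higher in MARCO-/-. Ctse was 3.86-fold lower in WT and 1.82-fold lower in MARCO-/-, and Serpinb7 1.27-fold and 1.90-fold lower. These 6 genes thus went the same way in both genotypes.

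The brightest probe sets of Wdfy1 and Pisd-ps3 went opposite ways in the 2 genotypes. Wdfy1 was 1.88-fold lower with LPS in WT and 1.65-fold higher in MARCO-/-, and over its 4 probe sets the log2 response in MARCO-/- minus that in WT was between 1.17 and 1.63. The opposite sign holds for 3 of the 4, since 1 was 1.24-fold higher with LPS in WT and 2.80-fold higher in MARCO-/-. Pisd-ps3 was 1.37-fold higher in WT and 3.56-fold lower in MARCO-/- by its brightest probe set. Its other probe sets were lower with LPS in both genotypes, so the opposite sign holds for 1 of 3, and the mean of its probe sets was lower in both (log2 ratios -0.46 in WT and -2.39 in MARCO-/-). The difference between genotypes in response was not tested.

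**Figure D5:**
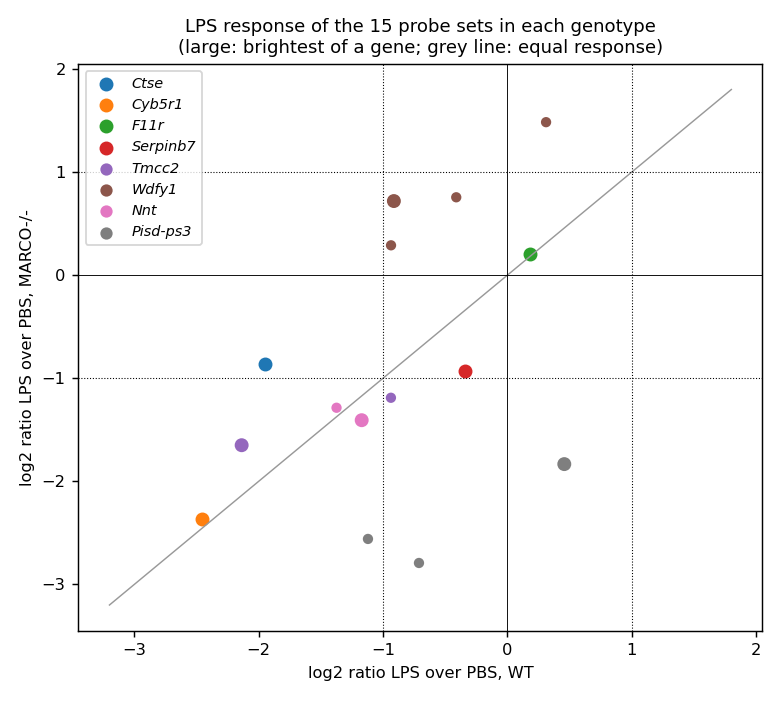
The log2 ratio of LPS over PBS in WT (x axis) and in MARCO-/- (y axis) for the 15 probe sets, coloured by gene, large for the brightest of a gene, with dotted lines at 2-fold and a grey line of equal response. Cyb5r1 at -2.45 and -2.36 and F11r at 0.18 and 0.20 lie on the line, the 4 probe sets of Wdfy1 above it and the 3 of Pisd-ps3 below it.

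No pair of arrays of the same treatment is free of the arrays with high connective tissue and muscle genes. The one pair without them, MARCO-/- LPS against WT PBS, differs in treatment as well, and gave log2 ratios of 2.96 for Ctse, 2.02 for Wdfy1, 1.49 for Pisd-ps3, 1.37 for F11r, 0.83 for Serpinb7, 0.27 for Nnt, -0.09 for Tmcc2 and -1.08 for Cyb5r1, so that 4 of the 8 were past 2-fold upward, beside 6.59% of all genes, and Cyb5r1 was past it downward, beside 5.53%. MARCO-/- PBS against WT LPS, where both arrays were high, gave from 0.99 for F11r to 5.77 for Ctse. For 6 of the 8, the exceptions being Cyb5r1 and Tmcc2, both MARCO-/- arrays were above both WT arrays. This held for 8.38% of all genes, but since the 8 were chosen for being higher in MARCO-/-, nothing is read from it.

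Markers of other cells moved as well. The 8 erythroid markers summed to 4624 (PBS) and 4193 (LPS) in WT against 6645 and 7001 in MARCO-/-, mostly from Hba-a1, with 3 markers 2-fold higher with PBS (Alas2, Slc4a1 and Klf1) and 1 with LPS (Alas2), and with 2 to 4 of the markers at or below the median of all intensities on each array. The 7 macrophage markers summed to 1457 (PBS) and 358 (LPS) in WT against 2271 and 576 in MARCO-/-, with none 2-fold apart with PBS, and Adgre1 and Slc40a1 higher and C1qa lower in MARCO-/- with LPS. The 4 NK cell markers summed to 698 (PBS) and 306 (LPS) in WT against 418 and 106 in MARCO-/-, with Ncr1 higher and Gzma and Gzmb lower in MARCO-/-. The 5 B cell markers (1184 to 1942 over the arrays) and 4 T cell markers (122 to 432) held none past 2-fold between genotypes. The 6 platelet markers summed to between 43.2 and 67.7, the 7 epithelial ones to between 51.1 and 126 with 4 or 5 of them at or below the median, and the 5 neutrophil ones to between 24.3 and 368. None of these passed 2-fold between genotypes with PBS, while with LPS Ppbp of platelets was higher and Krt5, Krt14 and the neutrophil gene S100a9 were lower in MARCO-/-. Erythroid and macrophage sums were thus higher in MARCO-/- in both conditions, but not all of their markers were. With PBS all 8 erythroid and all 7 macrophage markers were higher in MARCO-/-, while with LPS 3 and 4 were. The macrophage sums with LPS came mostly from Spic, at 247 in WT and 434 in MARCO-/-. The part of these cells in the results was not tested. The ratio of signal near the 3′ end to that near the 5′ end of a transcript is a measure of RNA quality. For Actb it was 1.45 in WT and 1.59 in MARCO-/- with PBS, against 1.86 and 1.66 with LPS. For Gapdh it was 1.77 in WT and 1.82 in MARCO-/- with PBS, against 2.17 and 2.20 with LPS. It was higher with LPS for both, in each genotype, and its part in the LPS responses was not tested.

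By their values over the 4 arrays, some genes were close to the 8. Closeness was measured by the Euclidean distance between log2 values centred on their mean, over the 3515 genes with a range of at least 1 on the log2 scale and a highest value above the median of all. Nnt and Jchain were 0.28 apart, Cyb5r1 and Ncr1 0.34, F11r and Gpr31b 0.37, and Tmcc2 and Ncr1 0.48. Wdfy1 was 0.70 from Slc15a2 and Serpinb7 0.66 from Alas2. Ctse, with its nearest gene Slc15a2 at 1.97, and Pisd-ps3, with Serpinb7 at 1.11, had no close match. With 4 arrays such distances only describe the shape of the values.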

How the data were processed

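RNA of CD11c-selected splenic DC was measured on 4 Affymetrix arrays, which the methods name Mouse Genome 430 2.0. The probe set names in the deposited data carry the mark PM, of which the methods say nothing. The intensities were background-corrected, normalized and summarized per probe set by the authors with RMAexpress (version not given in the sources used here) and deposited on a linear scale, so their log2 was taken with no offset. Sequencing depth does not apply, and precision is limited by having 1 array per condition.

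The table holds 45141 probe sets, and 104 controls among them did not enter. In the platform annotation 28898 of the rest carry 1 gene symbol and 551 several, and the others are unnamed here. Each gene stands for its brightest probe set by mean log2 value, among those that carry only its symbol. Chromosomes and gene order came from RefSeq through the gene ID, for 16936 of 17097 genes, of which 16925 were placed on a chromosome. The gene positions used name no genome build, so coordinates are given only for the upstream windows, whose build is GRCm38.p6. The threshold for a call was that of the methods, 2-fold. With no replicates, no p-value, standard error or pairing was possible.

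The 8 genes and the gene lists were chosen with earlier results of these data known. The genes named are the 8 with Marco, the other genes past 2-fold in the same direction, the 2 nearest by distance, neighbours in gene order and the leading genes of each list. Others, such as Il10, were named after their values were seen, and the connective tissue and muscle list and the pair of arrays without it were added then. The counts were repeated under 10 other settings: centred arrays, quantile normalization, cyclic loess, filters at the median intensity and at a log2 value of 8, folds of 1.5 and 3, the mean of a gene's probe sets, no probe sets ending in x_at, s_at or a_at, and log2 with an offset of 16. Only the 2-fold calling was tested on simulated data, where it recovered planted changes well past the threshold. Python 3.11.15 with numpy 2.4.6, pandas 2.3.3 and matplotlib 3.10.9, and R 4.3.3 with limma 3.58.1, were used. RT-PCR values and pathway software were not used here.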

Additional observations from a re-analysis of the deposited data

Results flagged for a closer look

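Wdfy1, Pisd-ps3 and Marco moved in opposite directions with LPS in the 2 genotypes. The log2 response to LPS in MARCO-/- minus that in WT was 1.63 for Wdfy1, -2.29 for Pisd-ps3 and 1.46 for Marco. The opposite sign was seen in 3 of 4 probe sets of Wdfy1 and in 1 of 3 of Pisd-ps3, its brightest. The Marco intensities lie between 3.15 and 8.05, near the background. With 1 array per condition none of these differences was tested.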

How the results depend on the processing

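Of the 10 other settings, 5 change the values themselves: centring, quantile normalization, cyclic loess, the mean of a gene's probe sets and log2(value + 16). All 16 genotype ratios of the 8 genes stayed above 0 under these 5, as the choice of the genes favours. The other settings only drop genes or move the threshold, with 6 genes left without x_at, s_at and a_at probe sets and 2 left at a log2 value of at least 8. Their number past 2-fold was 8 with PBS, 8 with LPS and 8 in both. It was 2, 2 and 2 with a highest log2 value of at least 8, where 5 genes passed in the same direction and 20.0% of them lay on chromosome 1. It was 5, 2 and 1 with log2(value + 16), again with 5 genes and 20.0%, and 4, 3 and 1 at 3-fold, with 2 genes and 50.0%. At 1.5-fold 99 genes passed, 15.15% of them on chromosome 1, beside 19 and 31.58% at 2-fold.

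Genes at least 2-fold changed by LPS numbered 4 in each genotype. The number was 1 and 1 at a log2 value of at least 8, 2 and 2 without x_at, s_at and a_at probe sets, 3 in WT after quantile normalization, where Nnt missed 2-fold (log2 ratio -0.92), 2 in WT with log2(value + 16), and 7 in MARCO-/- at 1.5-fold. The offset and the filter lower the counts by their construction, since most of the 8 genes have low intensities.

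After quantile normalization F11r (log2 ratio 0.95) and Pisd-ps3 (0.86) missed 2-fold with LPS, after cyclic loess Pisd-ps3 did (0.91), and with the mean of a gene's probe sets Wdfy1 missed it with PBS (0.78). The cause was not tested. Centring the arrays and the filter at the median kept all 8. In MARCO-/- LPS over WT PBS alone, a pair chosen after seeing the data because it leaves out the arrays with high connective tissue and muscle genes, 4 of the 8 were at least 2-fold higher (6.59% of all genes) and Cyb5r1 was at least 2-fold lower (5.53%). No paired analysis was possible because each condition has 1 array.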
